A study of Saccharomyces cerevisiae with 22 samples.

Results

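The budding yeast genome holds many very short coding sequences, and those that growing wild-type (WT) cells express at a measurable level are described here. A gene was taken as a member when its systematic name began with Y, when the codon column of the WT count files gave it 85 codons or fewer, and when it had at least 100 mRNA counts in both RNA-Seq libraries of growing WT cells. The rule was met by 138 of the 6696 genes in the files. Of the 138, 107 matched a protein-coding gene of the R64 annotation and are the members that are named, and 31 had no entry there. In all, 439 genes had 85 codons or fewer, and 4839 longer genes met the count minimum. The members were thus chosen by length and by measured mRNA counts of growing WT cells. The deposited codon number ran 10 codons short of the annotated gene for 5673 of the 6005 protein-coding genes matched, so that 85 codons here stands for a reading frame of up to 95 codons with its stop codon. The members had 15 to 85 codons with a median of 64, against a median of 349.5 over all genes.

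The samples came from *Saccharomyces cerevisiae* labelled X2180-1a, growing in rich glucose medium or treated with 0.2 µM rapamycin, an inhibitor of the kinase complex TORC1 that induces autophagy. In 12 RNA-Seq libraries, RNA of a vacuole fraction purified by flotation was set beside RNA of the total lysate. These came from cells labelled *rny1*Δ *atg2*Δ, treated for 3 h (2 libraries per fraction) or growing (1 per fraction), and from cells labelled *rny1*Δ, treated for 3 h (2 per fraction) or growing (1 per fraction). All 12 libraries thus carry the *rny1* deletion (*rny1*Δ::natNT2) in their labels, and the *atg2* deletion (*atg2*Δ::kanMX6) removes a protein that autophagosome formation needs. The remaining 10 libraries came from WT cells, 5 of mRNA and 5 of ribosome footprints made from the same lysates, with 2 growing samples and 1 sample each at 1, 2 and 3 h of rapamycin.

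Rny1 is the vacuolar RNase that degrades RNA brought into the vacuole, and cells without it keep such RNA long enough for it to be sequenced. Autophagosomes enclose cytoplasm, ribosomes and mRNA included, and fuse with the vacuole. A short reading frame holds few ribosomes at a time and encodes a small protein, and many of the most highly expressed yeast proteins are of this kind. Small ribosomal proteins, the small Tim chaperones that guide precursors into mitochondria, accessory subunits of the respiratory chain, Sm and Lsm proteins that bind RNA, tail-anchored membrane proteins of the secretory pathway and proteolipids of the plasma membrane are all made from genes of this length.

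Depth was 9156333 to 22097523 counts on genes in 11 of the 12 vacuole and total libraries. The exception was vacuole replicate 2 of treated cells labelled *rny1*Δ *atg2*Δ, with 535462 counts, where 3 counts correspond to 5.60 CPM, the usual count scale that sets every library to the same total, against 0.136 to 0.328 CPM in the others. WT mRNA libraries held 10361721 to 14917164 counts and footprint libraries 2657480 to 20413301. With the label *rny1*Δ *atg2*Δ, ATG2 had 0 to 79 counts, and with the label *rny1*Δ 851 to 1448. RNY1 went against the label in all 12 libraries, with 9 to 439 counts, against 66 to 1119 in WT mRNA libraries, so both groups are called here by their labels. The labels name X2180-1a and the strain list of the paper X2180-1B for the mutants. The α-factor gene MF(ALPHA)1 had 167 to 13272 counts in these 12 libraries and 16158 to 29104 in WT mRNA libraries, and the a-factor gene MFA1 3 to 379 and 0 to 4. STE3, a gene of MATα cells, had 85 to 11146 and 1333 to 4074, and STE2, of MATa cells, 4 to 109 and 30 to 106. The lowest counts in the 12 are those of the library with 535462 counts. In every library both pairs had the order of MATα cells, although the paper lists X2180-1a as MATa. MF(ALPHA)2 lay below the longer MATa gene STE6 in treated mutant lysates. Replicates are described in the paper as biological and independent of each other, while the labels give only a number.

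Since the growing WT mRNA counts chose the members, the levels there are a description. Counted per codon, with the sum over annotated genes scaled as CPM are, the median member stood at 115, against 18.6 for the median annotated gene, and 37 of the 107 were among the 500 highest genes. The rule itself places the members high, because a count minimum in a short frame sets a floor per codon. The annotated genes were taken with no count minimum, so this contrast is no finding about the members. The lowest was WIP1, with 30.9, and the highest CWP2, which encodes a mannoprotein of the cell wall, with 7007. At the codon limit, DAD1, SPC1, ISD11, QCR8 and AUA1 lay just inside with 85 codons, and MRP10 (152 and 213 counts), LSM2 (653 and 640) and YPL250W-A (5025 and 5922) just outside with 86. At the count limit, YLR264C-A (128 and 101 counts in growing WT replicates 1 and 2), STF1 (103 and 153), MAK31 (105 and 142) and MCO6 (121 and 106) lay just inside. COX14 (98 and 141), SME1 (98 and 114), YER090C-A (99 and 98) and COA2 (99 and 109) lay just outside.

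Of the 107 annotated members, 93 had at least 10 counts summed over the 12 vacuole and total libraries and were tested there. The other 14 were DAD1, MEO1, MIM2, MIN9, NHP6A, PMP1, QCR9, RPL29, SNA2, YCR024C-B, YDR524C-B, YDR524W-C, YHR175W-A and YPR170W-B. MIN9 had 1 count in those 12 libraries and 13 genes had none, although growing WT cells gave 4675 and 4906 counts for RPL29, a protein of the large ribosomal subunit, 1075 and 1310 for NHP6A, a chromatin protein with an HMG box, and 1565 and 1434 for PMP1, a small proteolipid that associates with the plasma membrane proton pump. The genes left out made up 13.1% of the annotated members, against 2.36% of the 4619 longer annotated genes with the same count minimum, 102 of which were at 0 in all 12 libraries. Both experiments were counted by the authors with different programs, and the cause of these zeros was not tested.

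The first comparison asked how the vacuole fraction of treated cells differed from the total lysate. CPM and their ratios are relative to the other genes of each library and do not give the amount of mRNA in a vacuole fraction. The paper reports that mRNA was hardly detected in vacuoles of cells without Atg2, so a ratio near that of the lysate does not mean a like amount. In cells labelled *rny1*Δ *atg2*Δ the members stood close to the lysate, with a median log2 vacuole/total ratio of −0.09, whereas in those labelled *rny1*Δ the median was 1.01. Over all 5753 genes tested the medians were −0.02 and 0.04. The ratios of single replicates had medians of −0.13 and −0.16 for *rny1*Δ *atg2*Δ and of 1.06 and 0.97 for *rny1*Δ. The members' share of all counts on genes pointed the same way, with 1.32 and 1.39% of the vacuole libraries against 1.74 and 1.80% of the total libraries for *rny1*Δ *atg2*Δ, and 2.62 and 2.55% against 1.89 and 1.97% for *rny1*Δ.

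A member was called where the log2 difference was at least 1 in size and the p-value of edgeR's quasi-likelihood test, adjusted by Benjamini and Hochberg's method over all genes tested, was under 0.01. In *rny1*Δ *atg2*Δ, none of the 93 members was higher in the vacuole fraction and 3 were lower, beside 1.81% and 1.48% of all genes tested. At an unadjusted p under 0.05, 8 were higher and 31 lower in that strain, beside 21.8% of all genes in each direction, and DESeq2 also called 0 higher and 3 lower. The 3 lower were HOR7, a gene induced by high osmolarity, COX7, a subunit of cytochrome c oxidase, and QCR10, a subunit of the cytochrome bc1 complex. In *rny1*Δ, 48 of the 93 members were higher in the vacuole fraction and 2 were lower, beside 11.2% and 7.11% of all genes tested. The 2 lower were SPO24, a gene of sporulation, and STF2, whose product protects cells during dehydration. Both vacuole libraries lay above both total libraries for 18 members in *rny1*Δ *atg2*Δ (29.1% of all genes) and for 82 in *rny1*Δ (44.3% of all genes). They lay below both total libraries for 37 members in *rny1*Δ *atg2*Δ (33.8%) and for 8 in *rny1*Δ (39.4%).

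**Figure D1:**
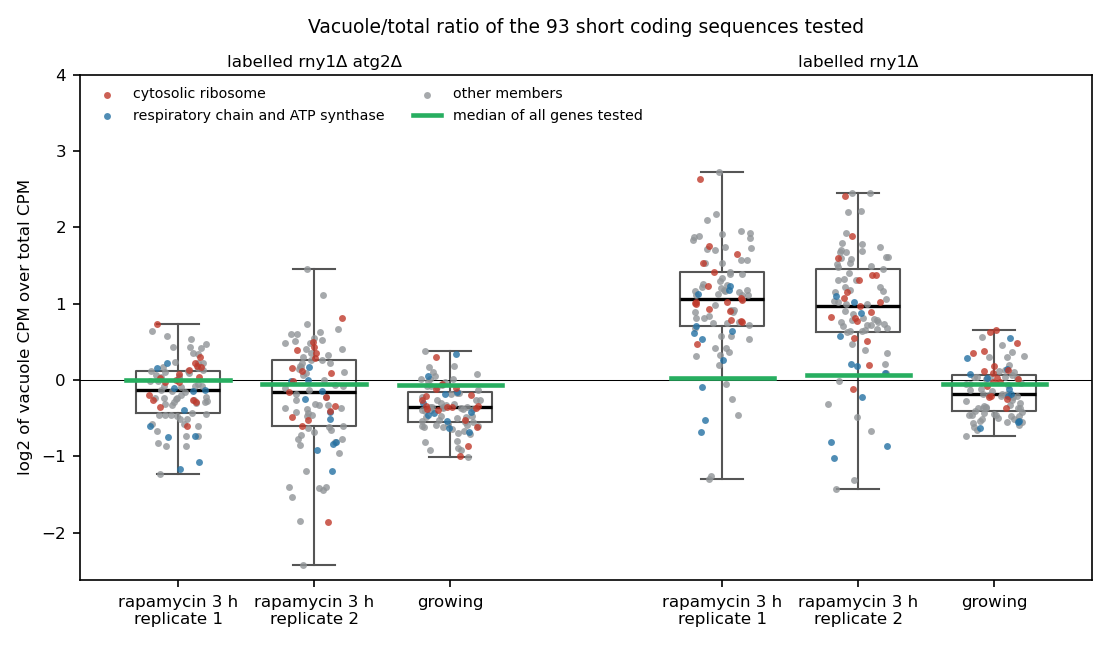
Log2 vacuole/total ratio of each of the 93 members in 6 library pairs, in treated and growing cells labelled *rny1*Δ *atg2*Δ and then *rny1*Δ, with boxes for the quartiles, whiskers for the range and a line for the median of all genes tested. The treated pairs labelled *rny1*Δ stand apart, with medians of 1.06 and 0.97, and the other 4 pairs have medians of −0.35 to −0.13.

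The difference of this ratio between the strains, *rny1*Δ *atg2*Δ minus *rny1*Δ, had a median of −1.16 over the members and of −0.05 over all genes. It was called lower in *rny1*Δ *atg2*Δ for 59 of the 93 members and higher for none, beside 13.7% and 10.2% of all genes tested. At an unadjusted p under 0.05, 4 members were higher, beside 30% of all genes, and DESeq2 called 1 higher and 50 lower. Without vacuole replicate 1 of *rny1*Δ *atg2*Δ, which leaves only the shallow library for that group, 27 members were called. These ratios were graded with gene length over genes with the same count minimum. With a correction of each library for gene length, which by its construction takes out the property that chose the members, 21 members were called in *rny1*Δ (14 higher and 7 lower) and 15 for the difference between strains (4 higher and 11 lower). Shares of all genes are not given for this correction, for DESeq2 or for fits without a library. Whether such counts exceed their background was not tested.

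The size of the change is seen in single members. MAK31 (YCR020C-A, chromosome III, 154830 to 155096) encodes a subunit of the N-terminal acetyltransferase NatC. It had 4.47 and 2.14 CPM in the vacuole libraries and 6.22 and 5.97 CPM in the total libraries of treated *rny1*Δ *atg2*Δ cells, where the shallow library held 1 count, and 27 and 27.8 CPM against 7.31 and 8.62 CPM in *rny1*Δ. Only the vacuole libraries of treated *rny1*Δ cells were high, since growing *rny1*Δ cells had 8.0 CPM in the vacuole and 12.6 CPM in the lysate. RPC10 (YHR143W-A, chromosome VIII, 387233 to 387445), a subunit shared by the nuclear RNA polymerases, had 4.47 and 4.29 CPM in the vacuole and 6.86 and 8.44 CPM in total libraries of *rny1*Δ *atg2*Δ, and 24.8 and 20.1 CPM against 6.82 and 6.46 CPM in *rny1*Δ. The fitted difference between strains was −2.51 (SE 0.29, adjusted p = 1.8e-06) for RPC10 and −2.26 (SE 0.27, adjusted p = 3.2e-06) for MAK31 by edgeR's quasi-likelihood test. Both calls were lost without vacuole replicate 1 of *rny1*Δ *atg2*Δ.

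RPS28B (YLR264W, chromosome XII, 673131 to 673334), a protein of the small ribosomal subunit with a near-identical copy, had 9.16 and 6.43 CPM in the vacuole and 8.10 and 9.29 CPM in total libraries of treated *rny1*Δ *atg2*Δ cells. In *rny1*Δ it had 107 and 96.2 CPM in the vacuole and 17.1 and 17.9 CPM in the lysate. The groups overlapped in the first strain and lay far apart in the second, with a difference between strains of −2.47 (SE 0.20, adjusted p = 1.3e-07). YLR264C-A, which lies beyond RPS28B on the opposite strand of chromosome XII, had the highest ratio of all members in both strains, with 0.62 in *rny1*Δ *atg2*Δ and 2.60 in *rny1*Δ. It was looked at after the values were known, and reads of the 2 genes cannot be told apart where the counting took no account of strand, which the sources used here do not state. MRPL39 (YML009C, chromosome XIII, 251304 to 251516), a protein of the mitochondrial ribosome, had 12.4 and 8.57 CPM in the vacuole and 13.8 and 11.5 CPM in total libraries of *rny1*Δ *atg2*Δ, and 44.8 and 45.8 CPM against 10.4 and 9.87 CPM in *rny1*Δ. Its difference between strains was −2.23 (SE 0.22, adjusted p = 5.3e-07). The shallow library held 2 counts of RPC10, 3 of RPS28B and 4 of MRPL39.

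CPP2 (YDR210W, chromosome IV, 871074 to 871301) had 12.5 and 17.1 CPM in the vacuole and 22.9 and 19.4 CPM in total libraries of *rny1*Δ *atg2*Δ, and 107 and 92.8 CPM against 28.2 and 30.8 CPM in *rny1*Δ. Its difference was −2.50 (SE 0.20, adjusted p = 1.1e-07), and since the gene overlaps another on the opposite strand its counts are uncertain. The 5 members (RPC10, CPP2, RPS28B, MAK31 and MRPL39) were named for the lowest difference between strains in treated cells, and their growing levels differed. In MAK31 and MRPL39 the vacuole libraries of treated *rny1*Δ cells were above the other 10 libraries of the mutants. In RPC10 the growing libraries were at a like level, with 23.2 CPM in the vacuole and 25.4 CPM in the lysate of *rny1*Δ, and so were those of CPP2, with 77.0 and 84.9 CPM. In RPS28B they were higher than any treated library, with 229 CPM in the vacuole and 148 CPM in the lysate of *rny1*Δ.

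**Figure D2:**
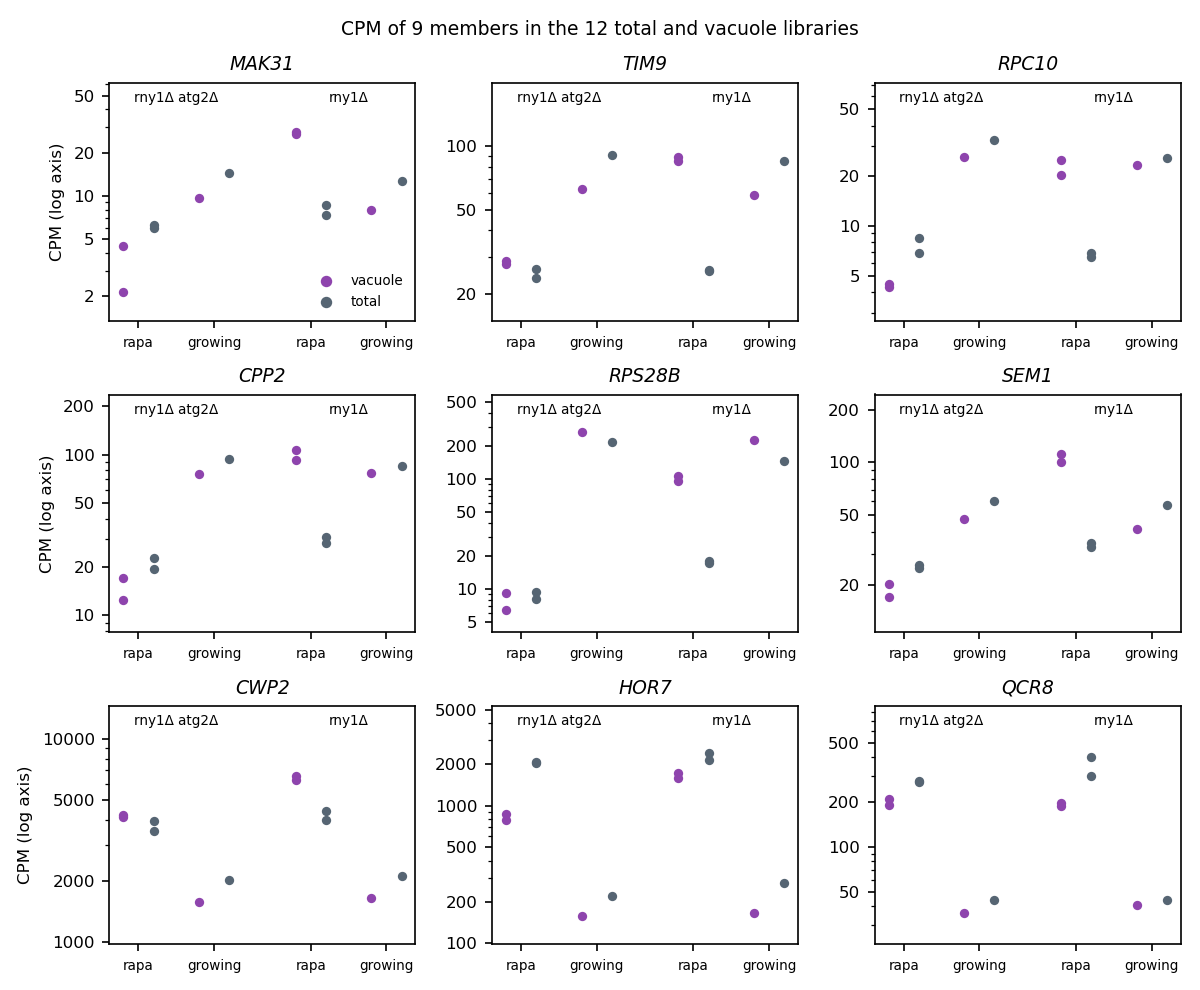
Levels in CPM, on a log axis, of MAK31, TIM9, RPC10, CPP2, RPS28B, SEM1, CWP2, HOR7 and QCR8 in the 12 vacuole and total libraries, 1 point per library. For MAK31, TIM9, RPC10, CPP2 and SEM1, the 2 vacuole libraries of treated *rny1*Δ cells lie above both total libraries of the same cells, and for HOR7 the vacuole libraries of treated *rny1*Δ *atg2*Δ cells (874 and 791 CPM) lie below the total libraries (2054 and 2094 CPM).

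The second comparison took account of what vacuole fractions of growing cells held, by subtracting the growing log2 ratio from that of treated cells. In growing cells the members were slightly lower in the vacuole fraction, with a median of −0.35 in *rny1*Δ *atg2*Δ and −0.18 in *rny1*Δ, against −0.07 and −0.06 over all genes, from 1 library pair per strain and with no test. The enrichment that remained had a median of 0.11 in *rny1*Δ *atg2*Δ and 1.19 in *rny1*Δ, against 0.03 and 0.08 over all genes. In *rny1*Δ *atg2*Δ, 7 members were called higher (DAD4, LSM3, RPL39, RPL41A, RPL41B, TMA7 and TOM5) and 0 lower, beside 2.26% and 1.46% of all genes. In *rny1*Δ, 53 were higher and 0 lower, beside 12.1% and 7.98%. At an unadjusted p under 0.05, 6 members were lower in *rny1*Δ *atg2*Δ and 3 in *rny1*Δ, beside 13.1% and 25.8% of all genes, and DESeq2 called 0 and 1 lower.

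The difference in enrichment between strains had a median of −1.02 over members and −0.03 over all genes, with 37 members called lower in *rny1*Δ *atg2*Δ and 0 called higher, beside 9.26% and 8.03% of all genes. At an unadjusted p under 0.05, 4 were higher, beside 21.8% of all genes, and DESeq2 called 17 lower and 1 higher. This result rested on vacuole replicate 1 of *rny1*Δ *atg2*Δ: without it, 3 members were called for the difference and 0 for enrichment in *rny1*Δ *atg2*Δ. That last count was also 4, 4, 2 and 3 without vacuole replicate 1 of *rny1*Δ, vacuole replicate 2 of *rny1*Δ, total replicate 1 of *rny1*Δ *atg2*Δ or the shallow library. After the correction for gene length, 19 members were called for enrichment in *rny1*Δ (15 higher and 4 lower), 9 for the difference and 0 in *rny1*Δ *atg2*Δ, again with no share of all genes to set beside them.

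TIM9 (YEL020W-A, chromosome V, 117211 to 117474), a chaperone of the mitochondrial intermembrane space, had 28.7 and 27.9 CPM in the vacuole and 26.2 and 23.9 CPM in total libraries of treated *rny1*Δ *atg2*Δ cells. In *rny1*Δ it had 85.1 and 89.3 CPM in the vacuole and 26.1 and 25.6 CPM in the lysate of treated cells, against 58.5 CPM and 85.3 CPM in growing cells. On this scale, TIM9 was lower in the lysate after rapamycin and not lower in the vacuole. By edgeR's quasi-likelihood test its enrichment in *rny1*Δ was 2.30 (SE 0.17, adjusted p = 4.5e-08), second to that of MAK31, 2.44 (SE 0.27, adjusted p = 3.3e-06). SEM1 (YDR363W-A, chromosome IV, 1202128 to 1202397), a small subunit of the proteasome lid, had 20.2 and 17.1 CPM in the vacuole and 25 and 26 CPM in total libraries of treated *rny1*Δ *atg2*Δ cells, so that the vacuole lay below the lysate. In *rny1*Δ it had 111 and 100.4 CPM against 33.1 and 34.9 CPM, with an enrichment of 2.09 (SE 0.18, adjusted p = 2.3e-07). NCW1 (YMR122W-A, chromosome XIII, 511315 to 511569), a cell wall protein, was the most abundant of the 5 members with the highest enrichment, at 1231 and 1191 CPM in the vacuole and 272 and 258 CPM in the lysate of treated *rny1*Δ cells, and had an enrichment of 2.16 (SE 0.17, adjusted p = 9.0e-08). The remaining one, AUA1 (YFL010W-A, chromosome VI, 114990 to 115274), had 2.28 (SE 0.24, adjusted p = 1.7e-06), with counts that are uncertain because the gene overlaps WWM1.

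Enrichment is given here by functional list, without a test between lists. The counts called in these lists stand beside 12.1% of all genes higher and 7.98% lower in *rny1*Δ, and 2.26% and 1.46% in *rny1*Δ *atg2*Δ. The nuclear and RNA list holds mostly nuclear or RNA-binding proteins, and also RUB1 and TMA7. Its median was 1.53 in *rny1*Δ, with 11 of 13 called higher. Those called included SMX3 (2.00), a core protein of the spliceosomal particles, RPC10 (1.88), RPB10 (1.66), likewise a shared subunit of the RNA polymerases, and RUB1 (2.05), a ubiquitin-like modifier. NOP10, a protein of the particles that guide pseudouridylation of rRNA, had 0.78 (SE 0.17) and was not called, and the other was DAD4 of the kinetochore (0.92). TMA7, a protein found with ribosomes, was called in both strains, with 1.02 (SE 0.19) in *rny1*Δ *atg2*Δ and 1.40 (SE 0.18) in *rny1*Δ. Its call in *rny1*Δ *atg2*Δ was lost without vacuole or total replicate 1 of that group or without vacuole replicate 1 or 2 of *rny1*Δ.

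Members for mitochondrial import and assembly had a median of 0.58 in *rny1*Δ *atg2*Δ, where TOM5 alone was called, and of 1.30 in *rny1*Δ, with 11 of 14 higher. Beside TIM9 the 11 included TIM10 (1.58, SE 0.18) and TIM8 (1.77), small chaperones like TIM9, the TOM5, TOM6 and TOM7 subunits of the outer membrane translocase (1.38, 1.11 and 1.19) and the copper chaperone COX17 (1.33). RSM19, a protein of the small mitochondrial ribosomal subunit, had 0.43 (SE 0.18) and was not called. Members of the secretory pathway had a median of 1.21 in *rny1*Δ, with 8 of 11 higher, among them SSS1 (1.22, SE 0.17) and SBH1 (1.37, SE 0.19), which form part of the translocon of the endoplasmic reticulum. SBH2, the counterpart of SBH1 in the second translocon, had 0.74 (SE 0.17) and was not called.

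Of the 18 tested members that encode proteins of the cytosolic ribosome, 9 were called higher in *rny1*Δ, with a median of 1.02. RPL43A had 0.91 (SE 0.17) in that strain and was not called, and RPL38 had 1.06 (SE 0.18). RPL41A was past the threshold in both strains, with 1.10 (SE 0.18) in *rny1*Δ *atg2*Δ and 1.29 (SE 0.17) in *rny1*Δ. RPL38 lost its call in *rny1*Δ without either vacuole replicate of that group, and RPL41A its call in *rny1*Δ *atg2*Δ without vacuole replicate 1. The 118 longer ribosomal protein genes, picked by symbol (RPL, RPS or RPP), had a median of 0.88, with 43 higher and 1 lower. That pattern also matches RPP1, which encodes a subunit of RNase P. Many ribosomal proteins have near-identical copies, whose counts are uncertain because reads that aligned to more than 1 place were not counted.

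The lists that encode subunits of the respiratory chain and proteins of the plasma membrane and stress response had lower medians. Of 11 respiratory members, ATP19, a subunit of the ATP synthase, was called (1.35, SE 0.20), and the median was 0.45 in *rny1*Δ, against 0.14 over 26 longer respiratory genes, 3 of them higher and 1 lower. QCR8 of the cytochrome bc1 complex had −0.75 (SE 0.21), STF1, a regulator of the ATP synthase, −0.29 (SE 0.23), and COX12 of cytochrome c oxidase 0.89 (SE 0.23). None of these 3 passed the threshold. The 5 plasma membrane and stress members stayed under a size of 1 in both strains. In *rny1*Δ they had 0.97 (SE 0.21) for CWP2, 0.72 (SE 0.19) for the plasma membrane proteolipid PMP3, 0.61 for PMP2, 0.26 (SE 0.19) for HOR7 and −0.78 for STF2.

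ATX1, which carries copper to the secretory pathway, was the one member of the metal-binding list and had 0.72 (SE 0.28) in *rny1*Δ *atg2*Δ, where it was not called, and 1.99 (SE 0.26, adjusted p = 1.5e-05) in *rny1*Δ, where it was. In the list for vacuole and proteolysis, SEM1 and ATG44, a mitochondrial fission factor needed for mitophagy (1.52, SE 0.26), were called in *rny1*Δ. PBI2, an inhibitor of vacuolar proteinase B, had 0.34 (SE 0.22) and was not. The 17 members on no list had a median of 1.54 with 10 called higher.

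**Figure D3:**
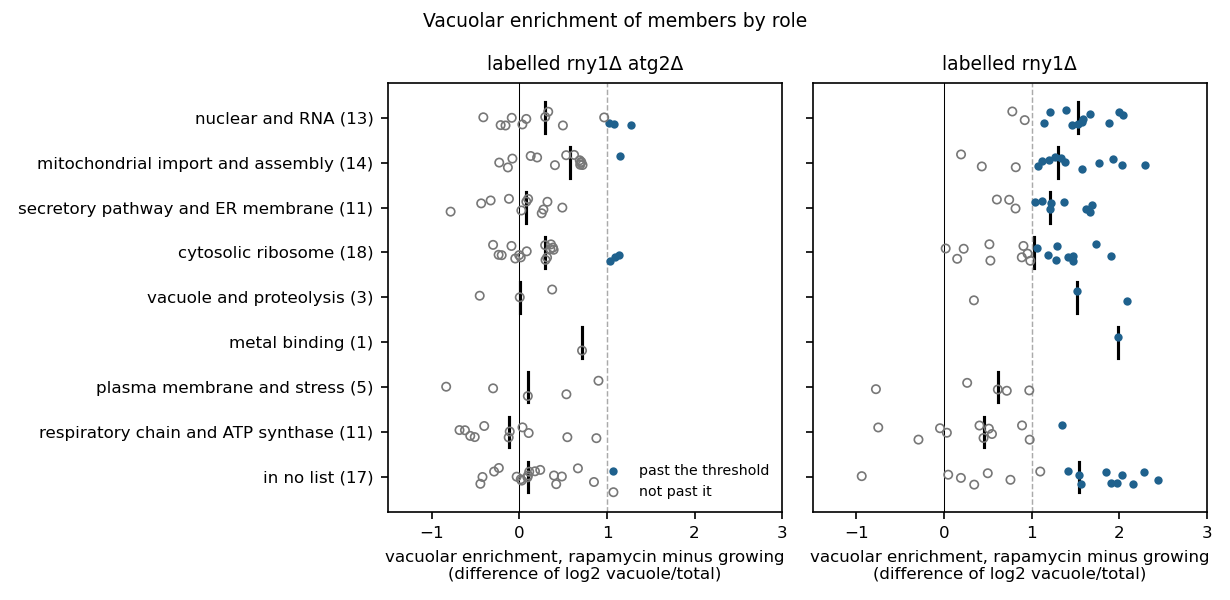
Enrichment in the vacuole fraction after rapamycin (log2 vacuole/total ratio of treated minus growing cells) of each tested member, by functional list and for both strains, with filled points past the threshold and a tick at the median of each list. In *rny1*Δ the nuclear and RNA list (median 1.53), the mitochondrial import list (1.30) and the secretory list (1.21) lie above the ribosomal (1.02), the plasma membrane and stress (0.61) and the respiratory (0.45) lists.

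Enrichment was graded with length over the genes that met the count minimum of the rule, to which all length bins were restricted. In *rny1*Δ the median was 1.19 for the members, 0.96 for genes of 86 to 150 codons, 0.59 for those up to 300, 0.06 for those up to 600 and −0.42 above 600 codons. The vacuole/total ratio of treated *rny1*Δ cells followed the same order, with 1.01, 0.94, 0.50, 0.01 and −0.28. In treated *rny1*Δ *atg2*Δ cells the ratio had medians of −0.09, −0.20, −0.18, 0.00 and 0.22 over the same bins, so that the longest genes stood highest. Within the members, however, length and enrichment were only loosely related. The median enrichment in *rny1*Δ was 1.29 over 7 members of 15 to 45 codons, 1.15 over 32 of 46 to 65 codons and 1.17 over 54 of 66 to 85 codons, and Spearman's rho between codons and enrichment was 0.15 across the 93 members, which share all libraries. Since the genes of 86 to 150 codons came close to the members, no difference between these bins is claimed.

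**Figure D4:**
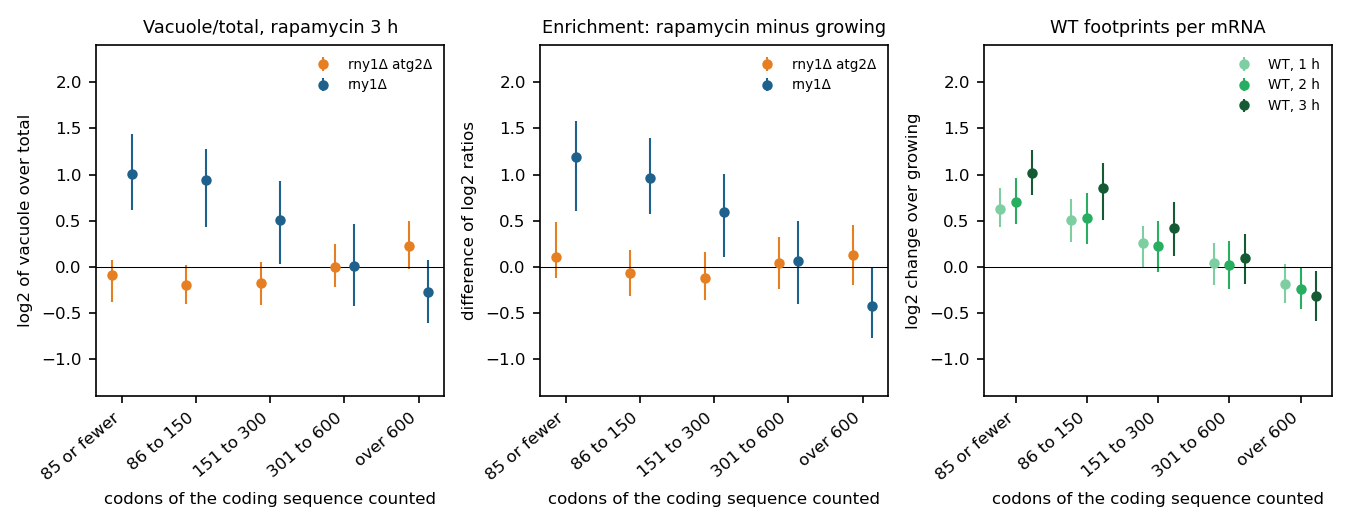
Median (points) and quartiles (bars), by length bin from the members to genes above 600 codons, of the log2 vacuole/total ratio of treated cells, of the enrichment, and of the change in footprints per mRNA at 1, 2 and 3 h in WT cells. All bins hold genes with the count minimum of the rule. In *rny1*Δ the enrichment medians fall from left to right through 1.19, 0.96, 0.59, 0.06 and −0.42, and the changes in footprints per mRNA at 3 h through 1.02, 0.85, 0.43, 0.09 and −0.32.

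In total lysates, which show the response of the mRNA level to 3 h of rapamycin, more members were lower than higher. In *rny1*Δ *atg2*Δ, 15 of 93 were higher and 48 lower, beside 23.4% and 23.9% of all genes, with a median of −1.07 against −0.02 over all genes. In *rny1*Δ, 16 were higher and 39 lower, beside 21.3% and 22.9%, with a median of −0.75 against −0.05. The strains, which share no library, had 15 higher and 37 lower members in common, which is 15 of 15 and 15 of 16 of the higher and 37 of 48 and 37 of 39 of the lower ones. Every one of the 18 ribosomal members was lower in both strains, with medians of −3.95 and −3.32. RPL37A was lowest, at 22.8 and 25.1 CPM in treated and 946 CPM in growing *rny1*Δ *atg2*Δ lysates and at 30.2 and 28.7 CPM in treated and 779 CPM in growing *rny1*Δ lysates. Its log2 change was −5.31 (SE 0.12) in *rny1*Δ *atg2*Δ and −4.72 (SE 0.12) in *rny1*Δ. RPL38 (−4.20, SE 0.13 in *rny1*Δ) and RPS27B (−4.17, SE 0.13) came next. The 118 longer ribosomal protein genes had a median of −4.09 in *rny1*Δ, 117 of them lower.

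The opposite change was found for respiratory members, with a median of 1.24 in *rny1*Δ *atg2*Δ and 1.75 in *rny1*Δ. Of 11, 8 and 9 were higher, beside 23.4% and 21.3% of all genes. The 26 longer respiratory genes had a median of 1.70 in *rny1*Δ, with 21 of them higher. The 3 members that rose most in *rny1*Δ were STF1, SPO24 and PBI2. STF1 had 245 and 338 CPM in treated and 25.6 CPM in growing *rny1*Δ lysates, and its log2 change was 3.23 (SE 0.18) in *rny1*Δ *atg2*Δ and 3.51 (SE 0.18) in *rny1*Δ. SPO24 (3.49, SE 0.17) was high in treated lysates, with 2717 and 3238 CPM, and lower in the vacuole libraries of the same cells, with 1106 and 1209.9 CPM. PBI2 had 3.28 (SE 0.18), and HOR7, of the plasma membrane and stress list, 3.06 (SE 0.16). The mitochondrial import members had a median of −0.60 in *rny1*Δ with 4 of 14 lower, and the nuclear and RNA members −1.08 with 8 of 13 lower. The secretory members had −0.81 with 3 of 11 lower. Over all genes 22.9% were lower in *rny1*Δ, so the import and secretory counts lay near that share. The same total libraries enter the vacuole/total ratios, and the part of the lysate change in the enrichment was not tested.

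In WT cells the mRNA time course contains the counts that chose the members, so it is described with no test. Over the 107 annotated members the median log2 change against growing cells was −0.46, −0.60 and −0.70 at 1, 2 and 3 h, against 0.02, 0.03 and −0.01 over all 5927 genes. A size of at least 1 was reached upward by 12, 12 and 11 members, beside 15.1, 11.9 and 12.3% of all genes, and downward by 36, 34 and 43, beside 16.8, 15 and 16.3%. All 19 ribosomal members were lower at each time, with medians of −4.27, −3.75 and −3.32. The lowest point thus came at 1 h, and RPL37A shows it with 772 and 726 CPM in growing cells and 19.1, 32.7 and 60.7 CPM at 1, 2 and 3 h. The 12 respiratory members had medians of 0.72, 0.84 and 0.91, and the 15 mitochondrial import members −0.60, −0.58 and −0.62. STF1 had 11.5 and 13.8 CPM in growing cells and 115, 96.1 and 95.8 CPM at 1, 2 and 3 h, high at all 3 times. PBI2 had 27.5 and 28.1 CPM in growing cells and 131, 146 and 157 CPM at 1, 2 and 3 h, and QCR8 had 39.5 and 33.0 CPM in growing cells and 62.3, 69.2 and 67.7 CPM at 1, 2 and 3 h. Across the 93 members tested in both experiments, the WT change at 3 h and that in *rny1*Δ lysates had a Spearman's rho of 0.92, with points that share their growing or treated libraries within each experiment but none between them.

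**Figure D5:**
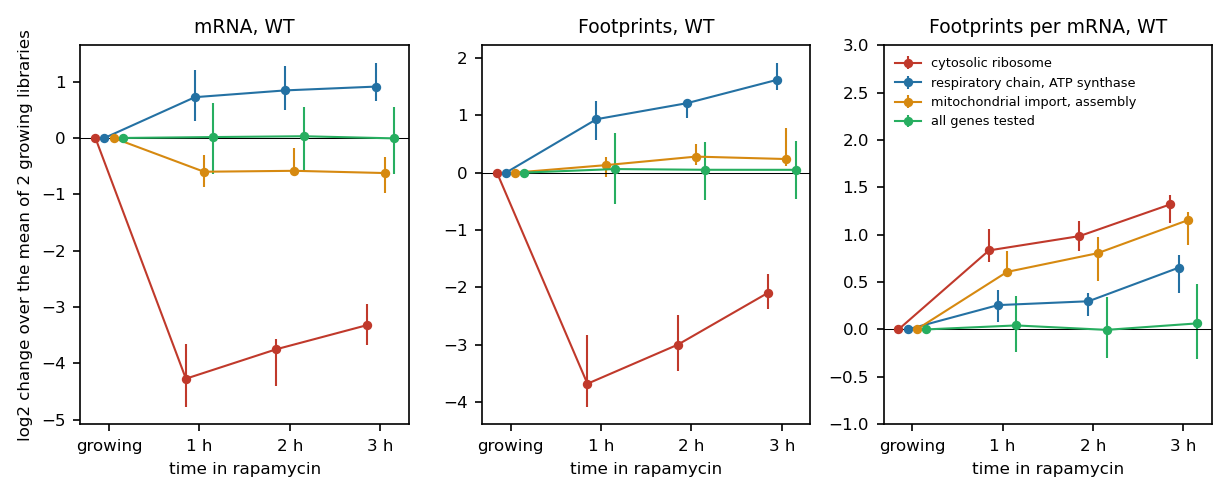
Median (points joined by lines) and quartiles (bars) of the log2 change against growing WT cells of mRNA, of footprints and of footprints per mRNA at 0 (growing), 1, 2 and 3 h of rapamycin, for the ribosomal, respiratory and mitochondrial import members and for all genes tested. Ribosomal mRNA is lowest at 1 h (median −4.27) and respiratory mRNA is above 0 throughout (0.72, 0.84 and 0.91).

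Ribosome footprints were not used to choose the members and were tested in 102 of them, with 1 residual degree of freedom from the 2 growing libraries. At 1 h, 14 members were lower and 0 higher, beside 5.92% and 0.16% of all 5625 genes tested. At an unadjusted p under 0.05, 24 were lower and 11 higher, beside 14.9% and 10.8% of all genes, and DESeq2 called 16 lower and 0 higher. The 14 were all ribosomal (RPL29, RPL37A, RPL37B, RPL38, RPL39, RPL43A, RPL43B, RPS21A, RPS21B, RPS27A, RPS27B, RPS28B, RPS29A and RPS29B), of 19 on that list, whose median was −3.71. RPL43A had 681 and 471 CPM in growing cells and 23.6, 42.9 and 93.5 CPM at 1, 2 and 3 h, and RPL38 had 779 and 562 CPM in growing cells and 35.4, 56.1 and 119 CPM at 1, 2 and 3 h. At 2 and 3 h, edgeR's quasi-likelihood test called no member, beside 0% of all genes in both directions. At an unadjusted p under 0.05, 4 members were higher and 21 lower at 2 h, beside 4.21% and 12.4% of all genes, and 15 were higher and 19 lower at 3 h, beside 5.92% and 11.1%. DESeq2 called 0 higher at both times and 17 lower at 2 h and 11 at 3 h. The ribosomal median at 3 h was −2.11, so that footprints lay closer to the growing level than at 1 h. The respiratory median at 3 h was 1.46 in the fit, and 2.35 and 0.92 against growing replicates 1 and 2 alone. Over all members the fitted footprint medians were 0.19, 0.15 and 0.24 at 1, 2 and 3 h. They were 0.44, 0.36 and 0.45 against growing replicate 1 and −0.02, −0.01 and 0.09 against replicate 2, so that the sign at 1 and 2 h turned with the growing library.

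Footprints per mRNA, the footprint CPM over the mRNA CPM of a gene in the same lysate, again contain the counts of the rule. This is a relative measure between genes and not the number of ribosomes on an mRNA. In growing cells the median member was at −0.22 on the log2 scale, against −0.11 over all genes, with −0.44 in replicate 1 and 0.04 in replicate 2. The highest value belonged to RPL41A, with ratios of 10.8 and 9.18 in growing replicates 1 and 2 and 21.0 at 3 h, and the lowest to MIN9, with 0.0567, 0.261 and 0.353. RPL41A and its copy RPL41B have 16 codons in the deposited column, the fewest of the annotated members. Members with fewer codons tended to have a higher ratio of footprint CPM to mRNA CPM, with a Spearman's rho of −0.36 across 102 members whose points share 4 libraries. How the counting of reads in such short frames enters this ratio was not tested. The respiratory members had a median of 0.80 as the mean of both growing replicates, but of 0.00 in replicate 1 and 1.65 in replicate 2. The 26 longer respiratory genes split the same way, with −0.03 and 1.24. The ribosomal members had −0.48 and 119 longer ribosomal protein genes −0.75.

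After rapamycin, footprints per mRNA of the members were higher, with median log2 changes of 0.62, 0.71 and 1.02 at 1, 2 and 3 h, against 0.04, 0.00 and 0.06 over all genes. At least 1 was reached by 16, 22 and 53 of 102 members, beside 4.09, 4.39 and 7.81% of all genes, while 0, 1 and 0 members were lower by that much, beside 2.83, 3.61 and 3.52% of all genes. The 1 member was STF1 at 2 h, with −1.08. The size at 3 h depended on the growing library it was set against. With growing replicate 1 alone the median was 1.34 (80 members at 1 or more, 13.3% of all genes), and with replicate 2 alone 0.77 (37 members, 6.49% of all genes). The growing replicates differed among themselves by a median of 0.42 over the members, replicate 2 minus replicate 1, against 0.01 over all genes. As with enrichment, the change was graded with length, with medians of 0.85, 0.43, 0.09 and −0.32 at 3 h in the bins of longer genes. The WT files count reading frames without their ends, and the part of this in the grading was not tested.

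Ribosomal members had a median of 1.32 at 3 h, with 17 of 19 at 1 or more, and the 119 longer ribosomal protein genes 1.09, with 72 at 1 or more. The counts of this kind by list stand beside 7.81% of all genes. The footprint median of the ribosomal members at 3 h thus lay nearer to growing cells than their mRNA median. The mitochondrial import members had 1.15 (10 of 15), the nuclear and RNA members 1.21 (9 of 15), the secretory members 1.03 (7 of 11), the plasma membrane and stress members 0.78 and the respiratory members 0.65, against 0.12 for longer respiratory genes. Against growing replicates 1 and 2 alone, the respiratory median was 1.44 and −0.25 and that of the longer respiratory genes 0.79 and −0.48, so that the direction turned with the growing library. For the plasma membrane and stress members it was 1.41 and 0.12. The ribosomal (1.18 and 1.42), mitochondrial import (1.58 and 0.71), nuclear and RNA (1.37 and 0.84) and secretory (1.23 and 0.84) medians were above 0 against both. SBH2 had 1.49, NOP10 1.56 and RSM19 1.52, while the 3 members that rose most in *rny1*Δ lysates stood lowest: STF1 had −0.77, PBI2 0.00 and SPO24 0.06. This order is partly built in, because the mRNA level is the denominator.

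The WT measures and the vacuole measures, which share no library, were only weakly related across members. Spearman's rho was −0.32 between footprints per mRNA in growing cells and the vacuole/total ratio of treated *rny1*Δ cells (91 members), 0.22 between the change in footprints per mRNA at 3 h and enrichment in *rny1*Δ (91 members) and −0.24 between the mRNA change at 3 h and that enrichment (93 members). By contrast, the vacuole/total ratios of the treated replicates had a rho of 0.56 for *rny1*Δ *atg2*Δ, where 1 replicate is the shallow library, and of 0.90 for *rny1*Δ across the 93 members.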

How the data were processed

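The authors' processing notes name CASAVA 1.8, Bowtie2 2.1.0, TopHat2 2.0.9 and HTSeq 0.6.1, STAR 2.7.0a and the sacCer3 build, which is the R64 assembly whose gene coordinates are given. For the 12 vacuole and total libraries, adapters were clipped and reads of rRNA removed before alignment with TopHat, and the authors deposited unnormalized counts per gene. For the 10 WT libraries alignment was by STAR, duplicate footprints were removed by their molecular identifiers, and the deposited values are counts within coding sequences, with a codon column. No column was left without a sample (0 unmapped). Rows of reads that named no gene were left out, with 29 to 61% of all rows' counts not unique and 18 to 33% on no feature in the vacuole and total files.

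The members and gene lists were chosen with earlier results of these data known, and some list members were added after the codon column was seen to run 10 codons short. Genes with at least 10 summed counts were normalized by TMM. The quasi-likelihood test of edgeR 4.0.16 (R 4.3.3) was used with Benjamini-Hochberg adjustment over all genes tested, in a fit of 12 libraries (8 groups, 4 residual degrees of freedom, biological coefficient of variation 0.0775) or of the 5 footprint libraries (1 residual degree of freedom, 0.323). Replicates exist only for treated mutants and growing WT cells, and all groups share one estimate of the spread. The thresholds, a log2 change of 1 and an adjusted p under 0.01, follow the study's methods. Log2 CPM used a prior count of 2. Tables were made with Python 3.11.15, numpy 2.4.6 and pandas 2.3.3. The fits were also run on simulated counts, with a spread set near that of the fit of 12 libraries and below that of the footprint fit. The simulation is therefore no check of the footprint fit. Alternatives were DESeq2 1.42.0 (Wald test and size factors), no count filter, all genes, single strains, a loess correction for length (span 0.5), the replicate block and leaving out each library.

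Members were named by rule. Among members past the threshold, these were the 5 with the highest and the lowest enrichment in *rny1*Δ, the same for the difference of ratios between strains, and the 3 highest and lowest in total lysates. No member was called lower for that enrichment or higher for that difference, so these sides named none. The 3 most abundant of each list, the highest and lowest footprints per mRNA, and those at the limits were also named. Some other members given with values, such as SMX3, RUB1 and TIM8, were outside the rule. No sequences are printed.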

Additional observations from a re-analysis of the deposited data

Results flagged for a closer look

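The vacuole/total ratio of treated cells and the enrichment over growing cells were each tested for a difference between the strains, *rny1*Δ *atg2*Δ minus *rny1*Δ. Only the enrichment takes growing cells into account. The ratio of treated cells was lower in *rny1*Δ *atg2*Δ for 59 of 93 members, beside 13.7% of all genes lower and 10.2% higher. The enrichment over growing cells was lower there for 37, beside 9.26% of all genes lower and 8.03% higher. RPC10, CPP2, RPS28B, MAK31 and MRPL39 were named for their low difference of the ratio. Among the named members, the difference of the ratio was −2.51 for RPC10, −2.50 for CPP2, −2.47 for RPS28B, −2.26 for MAK31, −2.23 for MRPL39, −2.06 for AUA1, −2.01 for NCW1, −1.98 for SEM1 and −1.56 for TIM9. Without vacuole replicate 1 of *rny1*Δ *atg2*Δ the counts were 27 and 3, and the calls of RPC10 and MAK31 were lost.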

How the results depend on the processing

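With the correction for gene length, which removes by construction what varies with the property that chose the members, 21 members were called for the vacuole/total ratio in *rny1*Δ (14 higher, 7 lower), 15 for its difference between strains (4 higher, 11 lower), 0 for enrichment in *rny1*Δ *atg2*Δ, 19 in *rny1*Δ (15 higher, 4 lower) and 9 for the difference in enrichment (3 higher, 6 lower), and the medians of enrichment in *rny1*Δ and of the ratio were 0.37 and 0.30. By DESeq2's Wald test, 3 members were called for enrichment in *rny1*Δ *atg2*Δ, 18 for the difference in enrichment, and 17 and 11 for footprints at 2 and 3 h. A fit of *rny1*Δ *atg2*Δ alone gave 4 for enrichment there. With no count filter, 23 members were called for footprints at 1 h (3 higher, 20 lower) and 16 at 2 h. Shares of all genes are not given for these alternatives, and the cause of the differences was not tested. Leaving out each treated library in turn, the calls ranged from 1 to 4 for the ratio in *rny1*Δ *atg2*Δ, 39 to 51 in *rny1*Δ and 27 to 59 for their difference. They ranged from 0 to 7 for enrichment in *rny1*Δ *atg2*Δ, 48 to 57 in *rny1*Δ and 3 to 45 for the difference, and in total lysates from 62 to 63 in *rny1*Δ *atg2*Δ and 53 to 57 in *rny1*Δ. Replicate numbers are shared between vacuole and total libraries, but deviations of same-numbered libraries correlated at only 0.05 in *rny1*Δ *atg2*Δ and 0.19 in *rny1*Δ. With 2 replicates per group this leaves unknown whether a number marks a shared culture, and the samples were treated as unpaired. With the replicate block, calls were 3, 50 and 57 for the ratio in *rny1*Δ *atg2*Δ, in *rny1*Δ and for their difference, 8, 53 and 43 for enrichment, and 62 and 55 in total lysates. Of 1797 alternative values for the 33 genes named by rule, 1637 kept direction and side of the threshold, 160 lost their call, and 0 changed direction. Depth limits low members in the shallow library, where MAK31, RPC10 and RPS28B had 1, 2 and 3 counts.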

Other observations

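The 31 members with no entry in the annotation had 15 to 77 codons in the deposited column. In growing WT replicates 1 and 2, YGL123C-A had 15006 and 15246 mRNA counts, YKL156C-A 3628 and 3817 and YMR307C-A 3279 and 3528, and the others fewer. In a fit of all genes in the files, 25 of the 31 were tested. For the vacuole/total ratio of treated cells, 1 was higher and 0 lower in *rny1*Δ *atg2*Δ, beside 1.81% and 1.48% of the 5753 annotated genes in the main fit. In *rny1*Δ, 5 were higher and 2 lower, beside 11.2% and 7.11%. The medians were 0.14 and 0.22. For enrichment in *rny1*Δ, 5 were higher and 2 lower, beside 12.1% and 7.98% of the annotated genes in the main fit. The median was 0.23, against 1.19 over the annotated members. YEL020C-B, with 579 and 648 counts in growing WT cells, carries the base name of TIM9 (YEL020W-A) with the letter of the opposite strand, and whether their reads were told apart is not given in the sources used here.

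Members that are near-identical copies of each other are given here by their vacuole/total ratios, with the uncertainty that reads shared by both copies were not counted. After treatment of *rny1*Δ cells, RPS28A had 141 and 131 CPM in the vacuole and 44.9 and 43.0 CPM in the lysate (1.63, SE 0.13), where RPS28B had 2.54 (SE 0.12). RPS27A had 81.0 and 77.1 CPM in the vacuole and 23.8 and 20.8 CPM in the lysate (1.82, SE 0.12), and RPS27B had 46.2 and 40.7 CPM and 22.3 and 20.8 CPM (1.01, SE 0.12). RPS21A and RPS21B had 1.19 (SE 0.11) and 1.16 (SE 0.11). The differences between copies were not tested.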
